A study of Xenopus tropicalis with 4 samples.

Results

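The regions described here are places between genes where E2F1 and OTX1 binding was called at the same spot in early frog embryos. They were chosen from called peaks. For each factor, overlapping peaks of its 2 lists (1 bp or more) were joined, and an E2F1 region was kept when it overlapped an OTX1 region by at least 1 bp. Its midpoint also had to lie outside every protein-coding gene and more than 1 kb from every annotated protein-coding gene end. This left 1149 shared intergenic regions of 13216 E2F1 regions found in both replicates, beside 17768 OTX1 regions found in both replicates. Coordinates below are on the build xenTr10, and distances run from the E2F1 region's midpoint to the nearer annotated gene end.

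Binding was mapped by chromatin immunoprecipitation and sequencing in embryos of the frog Xenopus tropicalis, taken whole at stage 8 (a blastula), with 2 libraries per factor and no uninjected group analysed here. The E2F1 group has the genotype label E2F1 Rescue: its embryos received E2F1 mRNA together with an MO, and chromatin was precipitated with an HA antibody. The OTX1 group has the label OTX1 Rescue: its embryos received OTX1 mRNA together with an MO, and a Myc-Tag antibody was used. Both groups therefore carried injected mRNA and an MO, the usual short form of morpholino oligonucleotide, whose target the labels do not spell out, and binding was read with an antibody to a tag and not to the frog's own protein. Nothing in the labels says that replicates were separate batches of embryos, so the spread between them may be technical. The factors were precipitated from different embryos, so overlapping regions do not show that both proteins sat on 1 DNA molecule.

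E2F1 belongs to a family of factors best known for binding the promoters of cell cycle and DNA replication genes. OTX1 is a homeodomain protein of the orthodenticle family, which acts in the head and forebrain of vertebrates, and OTX factors are also maternal products in frog eggs. At the blastula stage the embryo begins to transcribe its own genome, and maternal transcription factors bind DNA both at promoters and at distal regulatory regions. Distal regions can act on genes many kilobases away, so the nearest gene of a region is a position and not a shown target.

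The E2F1 lists held 16770 and 20385 peaks and the OTX1 lists 27755 and 29098. The median summit rested on 15 to 16 fragments in each of the 4 lists, and the highest q of a peak was 0.047 to 0.0492 for E2F1 and 0.00977 to 0.00999 for OTX1, so the calling thresholds differed. Of the peaks of single lists, 28.4% ± 1.2 were intergenic in the E2F1 lists and 44.1% ± 0.0429 in the OTX1 lists (SD, n = 2 each). The difference of -15.7 percentage points had a two-sided exact permutation p = 0.333, the smallest that 2 against 2 lists allow.

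Sharing was frequent between genes on the E2F1 side. Of the 3175 E2F1 intergenic regions 36.2% overlapped an OTX1 region, against 22.6% of all E2F1 regions, shares that the selection itself used. The share was 35.1% of 3201 E2F1 regions inside genes and 10.4% of 6825 at gene ends, meaning within 1 kb of one. Seen from OTX1, 1158 of 7922 intergenic regions (14.6%) overlapped an E2F1 region. Another 405 E2F1 intergenic regions touched a peak of a single OTX1 list, and 1621 touched no OTX1 peak and are called E2F1-only below. Likewise, 5820 OTX1 intergenic regions touched no E2F1 peak and are called OTX1-only. Since overlap chose the regions, the comparisons of these sets below are descriptions without a test.

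The overlaps were mostly close ones. The shared stretch had a median of 372 bp and ran from 40 to 1001 bp, and in 568 regions (49.4%) the shorter region lay wholly inside the longer one. The summits, the positions of highest signal, lay a median of 73 bp apart (quartiles 33 and 141 bp), and 720 of 1149 pairs (62.7%) lay within 100 bp. Within a factor, the summits of the replicates lay a median of 52 bp apart for E2F1 and 61 bp for OTX1 in the same regions. The 73 bp takes for each factor the summit of its peak with the higher percentile, while the replicate distances compare single libraries. Between single libraries of different factors the medians were 75 to 87 bp. Summits of different factors were thus somewhat farther apart than those of replicates. Shared regions inside genes had a median of 76 bp between the factors, and those at gene ends had 171 bp, with 33.5% within 100 bp. The shared summits at gene ends were the farthest apart of the 3 positions. Peak widths differed too. At gene ends the E2F1 peaks had median widths of 618 and 654 bp, beside 401 and 410 bp in the shared intergenic regions. The OTX1 peaks were narrower at gene ends, with 359 and 304 bp beside 408 and 382 bp. The part of peak width in the summit distances was not tested.

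**Figure D1:**
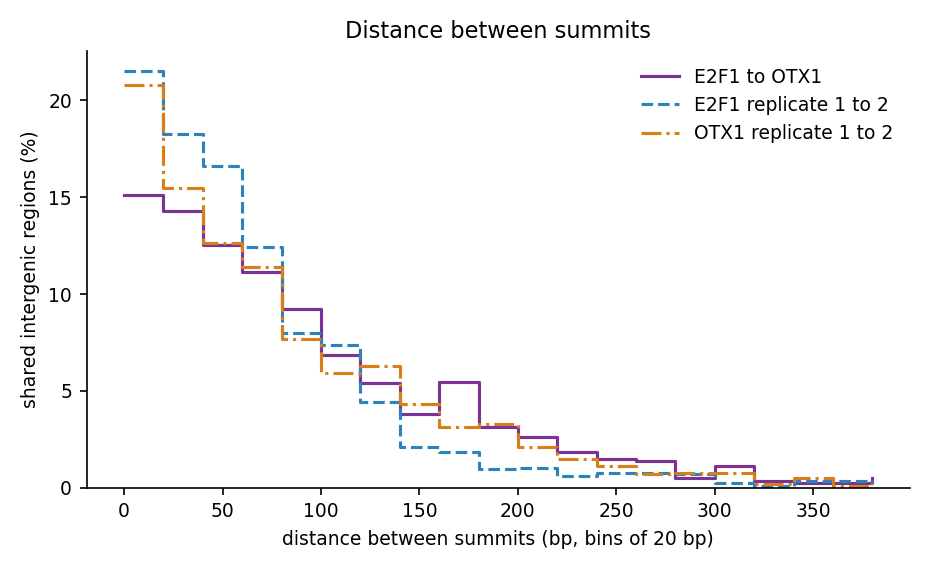
Distance between summits in the 1149 shared intergenic regions (x axis, bp, bins of 20 bp, drawn up to 400 bp) against the percentage of these regions (y axis), for E2F1 to OTX1 (solid), E2F1 replicate 1 to 2 (dashed) and OTX1 replicate 1 to 2 (dash-dotted). All 3 lines are highest at the shortest distances, with medians of 73, 52 and 61 bp. The E2F1 to OTX1 line takes for each factor the summit of its peak with the higher percentile, and the other lines compare single libraries.

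The regions at the edge of the rules differed in fold. The members nearest to the limit of 1 kb lay 1014 bp from p4ha1, a subunit of the enzyme that hydroxylates collagen, and 1017 bp from gata2, a zinc finger factor of ventral and blood development. Shared regions 987 bp from a gene known only by a locus number and 985 bp from lyn, a Src family kinase, fell just outside. The region near p4ha1 had folds of 6.7 and 5.25 for E2F1 and 5.37 and 6.98 for OTX1, and the one near lyn had 7.12 and 6.79 for E2F1 and 4.19 and 6.06 for OTX1. The region 1017 bp from gata2 had low folds, with a lowest fold percentile of 0.578 over the 4 lists, E2F1 folds of 3.09 and 4.14 and OTX1 folds of 3.87 and 4.35. Its local backgrounds were 7.1 and 7.95 for E2F1 and 6.75 and 6.82 for OTX1. The shortest overlaps were 40 bp near the protease gene tmprss2.15 and 58 bp near gask1b. Their summits lay 618 and 251 bp apart, and the region near tmprss2.15 lay within 500 bp of tRNA genes.

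Each peak's fold is the authors' ratio of the summit signal to the peak caller's local background in that library, and folds are ranked here only within a library's own list. The shared intergenic regions had median folds of 5.95 and 6.10 in E2F1 replicates 1 and 2, and 5.69 and 6.37 in OTX1 replicates 1 and 2. E2F1-only intergenic regions had 5.56 and 5.75, and OTX1-only intergenic regions had 5.27 and 5.77. As percentiles of their lists, the shared regions sat at a median of 60.7 and 63.1 for E2F1 and 71.8 and 74.8 for OTX1. E2F1-only regions sat at 52.5 and 57.1 and OTX1-only regions at 61.7 and 63.8. In each of the 4 lists the shared set had a higher median than the single-factor set, while the ranges overlapped almost fully. Shared regions at other positions gave values on both sides of these. Those at gene ends sat at 70.6 and 75.2 for E2F1 and 57.8 and 55.4 for OTX1. Those inside genes sat at 57.3 and 62.6 for E2F1 and 67.6 and 70.6 for OTX1.

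**Figure D2:**
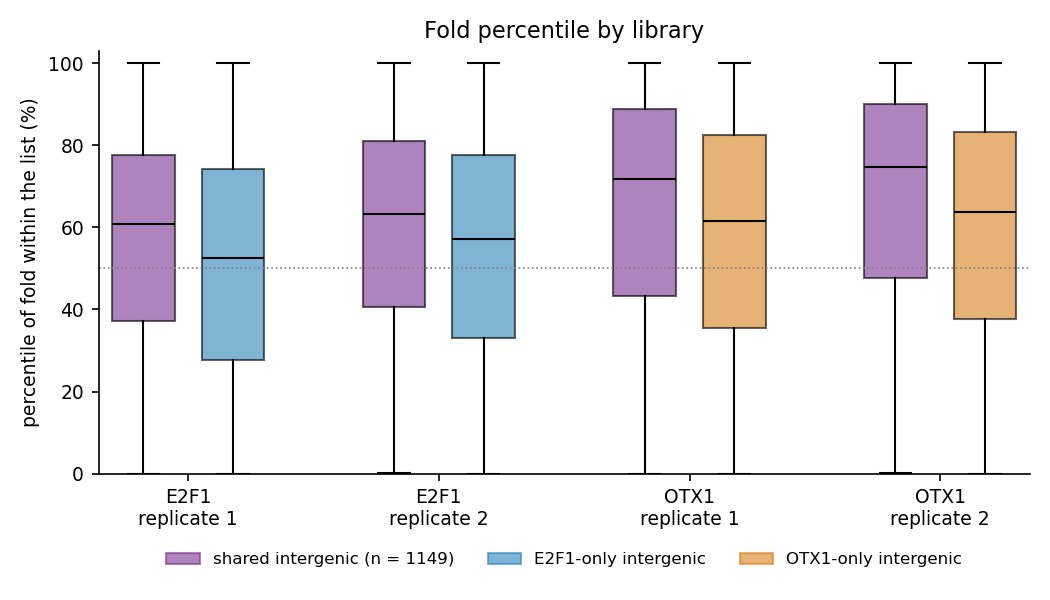
Percentile of fold within the library's own peak list (y axis) for shared intergenic regions (purple) beside E2F1-only (blue) or OTX1-only (orange) intergenic regions, by library (x axis). Boxes span the quartiles with the median as a line, whiskers the whole range, and the dotted line marks the list median; the shared medians are 60.7, 63.1, 71.8 and 74.8.

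Strong E2F1 regions were shared more often. With the E2F1 intergenic regions in 4 equal groups by fold, from low to high, the part that overlapped OTX1 was 29.1%, 34.6%, 39.2% and 41.8%. For OTX1 intergenic regions the order was flatter, with 12.4%, 12.2%, 13.8% and 20%. The OTX1 share stood apart in the highest group alone.

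Within the shared set, the folds of the factors were only weakly related. Across the 1149 regions the Spearman correlation of fold was 0.663 between E2F1 replicates and 0.715 between OTX1 replicates, but 0.109 to 0.138 between libraries of different factors. The correlation of the local background between the factors was higher, at 0.533 for replicates numbered 1 and 0.503 for those numbered 2. Regions are not independent replicates, and the points of each comparison come from the same libraries. By fold, 581 regions (50.6%) were above the list median in both E2F1 lists and 691 (60.1%) in both OTX1 lists. In all 4 lists 367 regions (31.9%) were above the median and 66 (5.74%) below it. Another 84 (7.31%) were high in both E2F1 lists and low in both OTX1 lists, 133 (11.6%) the reverse, and 499 (43.4%) were mixed between replicates. The top 10% of all 4 lists held 20 regions (1.74%), that of both E2F1 lists 80 (6.96%) and that of both OTX1 lists 174 (15.1%).

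**Figure D3:**
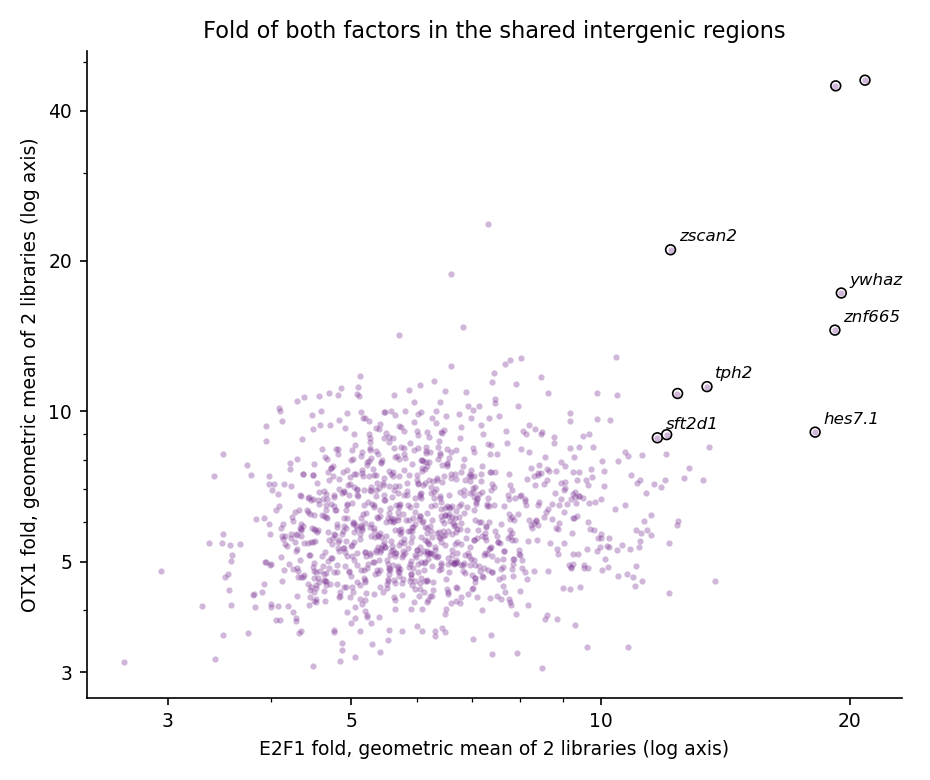
Fold of each of the 1149 shared intergenic regions for E2F1 (x axis) and OTX1 (y axis), both as the geometric mean of 2 libraries on log axes. Circles mark the 10 regions with the highest lowest-percentile over the 4 lists, labelled by the nearest gene where it has a name; the circles without a label lie nearest to genes with only a locus number. The cloud shows little slope, and a few regions stand at the upper right.

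The 10 regions that ranked highest in their weakest library were led by very tall ones. The first and the third lay on chromosome 9 (chr9:55840883-55841363 and chr9:55706590-55707744), 22.1 and 156.0 kb from a gene known only by a locus number. Their E2F1 folds were 19.8 and 22 for the first and 18.6 and 19.9 for the third, and their OTX1 folds were 46.2 and 45.8 for the first and 43.1 and 46.6 for the third. The third rested on 796 and 973 E2F1 fragments over a local background of 41.9 and 48.0, against a median summit of 17 and 19 fragments over all shared regions. The second lay 52.7 kb from ywhaz, a 14-3-3 adaptor protein, beside a leucine tRNA gene (chr6:130885891-130886625). It had E2F1 folds of 18.9 and 20.2 and OTX1 folds of 17.7 and 16.8, over backgrounds of 14.5 and 18.2 for E2F1 and 16.7 and 13.3 for OTX1. All 3 places were tall and stood over high backgrounds, whose part in the folds was not tested.

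Among the others of the 10, the named gene with a well known role in the early embryo was hes7.1, a basic helix-loop-helix repressor of the Notch pathway that acts in segmentation. Its region (chr3:144631715-144632588, 7.02 kb away) had E2F1 folds of 17.1 and 19.3 and OTX1 folds of 9.0 and 9.16. The backgrounds there were 2.28 and 2.89 for E2F1 and 2.22 and 1.84 for OTX1, all below 3 times the lowest of their lists. The medians over all shared regions were 2.01 and 2.19 for E2F1 and 3.04 and 2.62 for OTX1. Regions near the zinc finger genes znf665 (chr6:2894010-2894531, 4.85 kb) and zscan2 (chr2:180878401-180878865, 36.1 kb) also ranked here. The znf665 region had E2F1 folds of 20.7 and 17.8 and OTX1 folds of 16.0 and 13.2, on 132 and 115 E2F1 fragments over backgrounds of 5.41 and 5.52. The zscan2 region had 11.1 and 13.3 for E2F1 and 21.1 and 21.0 for OTX1, on 99 and 150 E2F1 fragments over backgrounds of 7.99 and 10.3. The region 60.1 kb from tph2, which makes serotonin in neurons, had 12.3 and 14.7 for E2F1 and 11.3 and 11.1 for OTX1. That of sft2d1, a protein of vesicle traffic, lay 12.7 kb away with 12.7 and 10.8 for E2F1 and 8.17 and 9.58 for OTX1. The remaining places, on chromosomes 2 and 8, lay nearest to genes with only a locus number, and the one on chromosome 8 had 180 and 241 E2F1 fragments over backgrounds of 15.2 and 17.7. The E2F1 backgrounds at znf665, at zscan2 and at this place were all above 3 times the lowest of their lists.

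Most shared regions lay well away from genes. The median distance to the nearest protein-coding gene end was 19.0 kb (quartiles 6.04 and 61.2 kb), beside 17.9 kb for E2F1-only and 24.1 kb for OTX1-only intergenic regions. Of the shared regions 239 (20.8%) lay within 5 kb of a gene end, 393 (34.2%) at 10 to 50 kb, and 180 (15.7%) beyond 100 kb. The gaps between genes that held them had a median length of 118.0 kb, beside 109.0 kb for E2F1-only and 130.0 kb for OTX1-only regions. In distance the shared set thus stood between the others and close to E2F1-only.

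**Figure D4:**
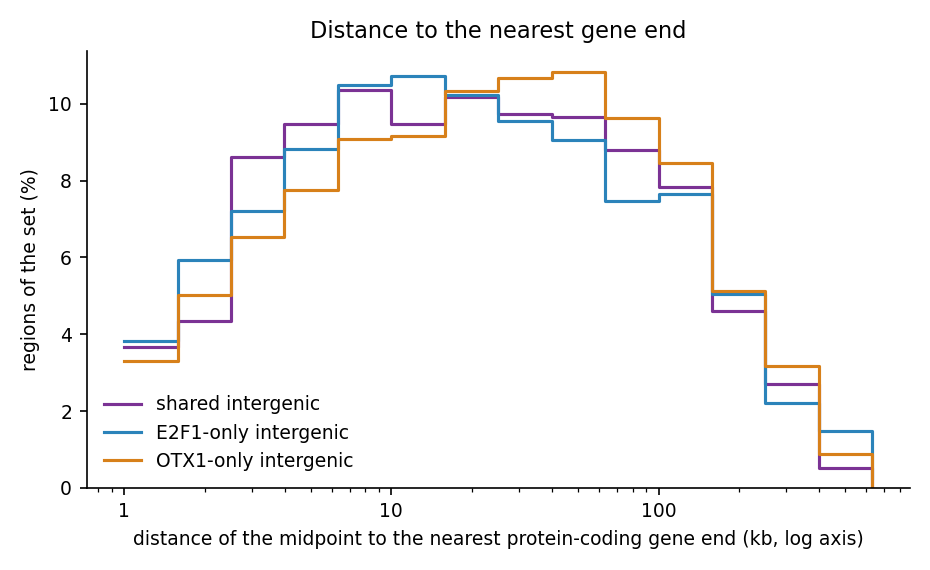
Distance of region midpoints to the nearest protein-coding gene end (x axis, kb, log axis) against the percentage of the set's regions (y axis) for shared, E2F1-only and OTX1-only intergenic regions. The 3 lines rise and fall together, with medians of 19.0, 17.9 and 24.1 kb.

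The regions were spread over many genes. The 1149 regions had 1005 distinct nearest genes, of which 893 had 1 region, 88 had 2 and 24 had 3 or more. Of the 1005 genes, 382 (38.0%) carried E2F1 within 1 kb of an end, where 35.1% of all protein-coding genes did, and 98 (9.75%) carried OTX1 there, where 7.29% did. The E2F1 share was near that of all genes. The OTX1 share was somewhat higher than that of all genes, a difference that was not tested. Among the genes nearest to E2F1-only regions the OTX1 share was 7.89%, and among those nearest to OTX1-only regions 7.63%. Of the nearest genes, 231 (23.0%) were also nearest to an E2F1-only region and 527 (52.4%) to an OTX1-only region. Among all 21749 protein-coding genes, 1343 were nearest to an E2F1-only region and 3618 to an OTX1-only region, which is the larger set.

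Genes with at least 4 shared regions nearest to them were few, and are named here after their values were seen. There were 5 at cdca5 (sororin, which protects sister chromatid cohesion) and 5 at slc9a3, a sodium-proton exchanger. A set of 4 each lay nearest to epha4, an ephrin receptor, pcdh17, a protocadherin, snai1, the zinc finger repressor of neural crest and mesoderm, and a gene known only by a locus number. The regions nearest to snai1 lay 5.6 to 87.2 kb from it, and those nearest to cdca5 lay 58.6 to 260 kb away.

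Shared regions rarely stood in groups. With gaps of at most 25 kb between midpoints, 1016 stood alone, 56 groups had 2 and 7 had 3, so that 11.6% had another within that distance. The share was 15.4% of E2F1-only and 33.7% of OTX1-only intergenic regions, which are more numerous sets. The 7 groups of 3 lay next to cdca5 (chr4:33512503-33528176), slc9a3 (chr6:72337619-72347361), the microtubule tip protein gene mapre1 (chr10:3436-15673), the protocadherin gene pcdh8.2 (chr2:131717358-131738522), the elongation factor gene eef1g (chr4:36772496-36795441), pdlim4 and rnf14.2 (chr3:36584365-36607370), and a gene with only a locus number on chromosome 8. At cdca5 the 3 regions had E2F1 folds of 4.64 to 7.06 in replicate 1 and 4.26 to 6.67 in replicate 2, and OTX1 folds of 6.95 to 7.8 and 6.44 to 7.65. The group by mapre1 began 3436 bp from the start of chromosome 10 and stood over high backgrounds, from 10.4 to 18 for E2F1 and 13.6 to 19.6 for OTX1 in replicate 1. By chromosome, the part of E2F1 intergenic regions that was shared ran from 23.8% of 181 on chromosome 9 to 40.5% of 388 on chromosome 2.

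Some of the regions met non-coding genes, which the selection did not use. Within 500 bp of one lay 65 shared regions (5.66%), beside 8.76% of E2F1-only and 3.32% of OTX1-only intergenic regions. Of the 65, 42 met a long non-coding RNA gene, 3.66% of the shared regions beside 6.11% of E2F1-only and 2.68% of OTX1-only regions. A tRNA gene was met by 8 shared (0.696%), 21 E2F1-only (1.3%) and 8 OTX1-only regions (0.137%). The 2 shared regions that met a microRNA gene, named after their values were seen, lay at mir200a (chr7:87889207-87889747) and mir106 (chr8:68371155-68373078). The region at mir200a had E2F1 folds of 11.7 and 13.1 and OTX1 folds of 5.51 and 6.37. That at mir106 had E2F1 folds of 6.41 and 8.53 and OTX1 folds of 2.98 and 3.58, over backgrounds of 16.0 and 18.8 for E2F1.

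Many of the listed genes had a shared region nearby. Of 21749 protein-coding genes, 1744 (8.02%) had a shared intergenic region within 50 kb of the gene, and of 523 genes in 18 hand-made lists, 136 (26.0%) did. Besides patterning genes, the lists hold DNA replication, cell cycle, histone and muscle genes. Single-factor regions were also more frequent near listed genes. E2F1-only regions lay within 50 kb of 25.2% of them, against 12% of all genes. For OTX1-only regions the shares were 42.1% and 30.0%. The lists were chosen with earlier results of these data known, so no test is given and the shares are descriptions. Neighbouring genes can count the same region, and the 136 genes rest on 127 regions. The regions near listed genes lay a median of 5.97 kb from the nearest gene end, beside 9.47 kb for those within 50 kb of any gene and 19.0 kb for all 1149.

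The local background moved with these counts. A background above 3 times the lowest of its list was found in at least 1 library for 274 of the 1149 regions (23.8%). No source used here states a control library, so this background may include immunoprecipitated signal. Leaving out such peaks may thus also leave out bound places. By list, 14.7% and 14.9% of the regions were above that limit for E2F1, beside 17.3% and 15.7% of all peaks. For OTX1 these were 12.9% and 14.4%, beside 4.59% and 5.26% of all peaks. Of the 127 regions near listed genes, 68 (53.5%) had such a background in at least 1 library. With all such peaks left out of the lists before joining, 5.85% of all genes and 66 of the 523 listed genes had a shared region within 50 kb. The peaks left out were tall, with a median summit of 35 and 41 fragments for E2F1 and 29 and 28 for OTX1, against 14 and 15 for E2F1 and 16 and 15 for OTX1 among those kept. At a given fold a higher background goes with more fragments, so the limit itself favours leaving out tall peaks. The part of the background in these counts was not tested, and both shares are given for each list below. With only regions over 5 kb from every gene end, where all genes had 4.81%, the shares were 36.1% for the neural, 35.0% for the ventral, 23.8% for the organizer, 18.8% for the endoderm and 8.7% for the mesoderm list.

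**Figure D5:**
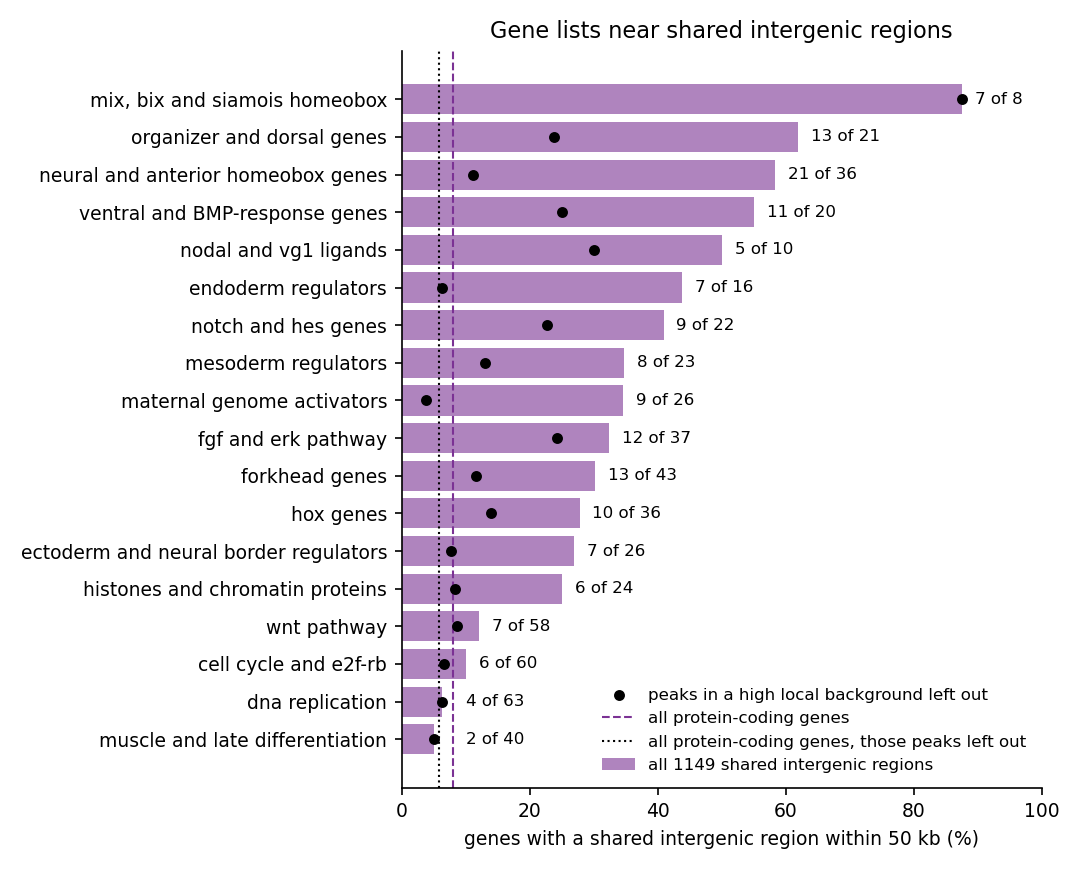
Percentage of each gene list with a shared intergenic region within 50 kb (x axis), as bars with the number of genes, and as black points with peaks in a high local background left out; the lines mark all protein-coding genes in the same ways (8.02% and 5.85%). The mix, bix and siamois list keeps 87.5% in both, and most other lists of patterning genes lie much nearer to the lines once these peaks are left out.

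The mix, bix and siamois genes, homeobox genes that start mesendoderm and organizer formation, had the highest share over all peaks. Of the 8 genes 7 (87.5%) had a shared region within 50 kb, also with high-background peaks left out, and these 7 rested on 5 regions in 2 gene clusters. Of the 5 regions 2 had a high background in at least 1 E2F1 library, those 4.6 kb from sia2 and 25.2 kb from bix1.1. The share without such peaks thus rested on the regions near sia3, near mixer and 17.2 kb from bix1.1. The region 2.47 kb from sia3, also within 50 kb of sia1 and sia2 (chr3:144278648-144279099), had E2F1 folds of 9.5 and 5.85 and OTX1 folds of 9.96 and 10.9. A further region stood 4.6 kb from sia2 (chr3:144310975-144311286), with 5.21 and 5.19 for E2F1 and 4.96 and 5.51 for OTX1. The region 25.2 kb from bix1.1 (chr5:8131269-8131835) had E2F1 folds of 10.7 and 11.4 and OTX1 folds of 7.18 and 7.16, on summits of 55 and 65 E2F1 and 31 and 31 OTX1 fragments. In all 4 libraries it was above the median of the shared set. Another lay 17.2 kb from bix1.1, with 7.85 and 7.46 for E2F1 and 5.6 and 4.92 for OTX1. The last, named after its values were seen, lay 5.44 kb from mixer (chr5:8036918-8037379), with 8.23 and 8.25 for E2F1 and 4.53 and 7.72 for OTX1. It lay closer to lin9, a gene of the cell cycle list, at 2.13 kb. E2F1-only regions lay within 50 kb of 6 of the 8 genes and OTX1-only regions of 0 of 8, against 12% and 30.0% of all genes. The 5 shared regions lay in only 0.166 Mb of eligible intergenic sequence, 30.2 per Mb, beside 1.82 per Mb around all genes. E2F1-only regions also numbered 5 there, 30.2 per Mb, beside 2.6 around all genes. When only regions over 5 kb from every gene end were counted, the list's share was 0.0%, against 4.81% of all genes. At −log10 q ≥ 5, and likewise with every list held to the same number of top peaks, it was 50%, below the 57.1% of the organizer list under both settings and, at −log10 q ≥ 5, below the 52.8% of the neural list.

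Genes of the Nodal pathway and of the organizer also had shared regions nearby. The nodal and vg1 list had 5 of 10 genes (50%, and 30.0% without high-background peaks). A region 9.26 kb from lefty, a secreted inhibitor of Nodal (chr5:8270537-8271084), had E2F1 folds of 6.42 and 8.6 and OTX1 folds of 5.45 and 7.76. Another, named after its values were seen, lay 6.94 kb from lefty (chr5:8250631-8251126), with 9.75 and 10.7 for E2F1 and 4.68 and 5.11 for OTX1. That of tdgf1.2, of the family of Nodal co-receptors, lay 15.1 kb away with 7.91 and 6.92 for E2F1 and 6.05 and 8.42 for OTX1. The ligand genes nodal5 and nodal6 had a common region 3.7 kb from nodal6 (chr3:130831074-130831505), with folds of 4.93 and 5.79 for E2F1 and 4.6 and 6.8 for OTX1. Of the organizer and dorsal genes 13 of 21 (61.9%) had a shared region, and 23.8% without high-background peaks. Its leading genes were the siamois genes above, foxa4 and not. The region of foxa4, a forkhead gene of the dorsal midline, lay 14.3 kb away (chr4:38389433-38390165), with E2F1 folds of 8.08 and 10.1 and OTX1 folds of 6.21 and 8.39. At not, a notochord homeobox gene, a region 3.82 kb away (chr1:16937825-16938212) had 6.53 and 6.39 for E2F1 and 7.58 and 7.24 for OTX1. Of the 15 regions near organizer genes 11 (73.3%) had a high background in at least 1 library, with medians of 2.89 and 3.77 for E2F1 and 5.26 and 3.92 for OTX1, beside 2.01 and 2.19 for E2F1 and 3.04 and 2.62 for OTX1 over all shared regions.

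Ventral genes were counted about as often as dorsal ones. Of the ventral and BMP-response genes 11 of 20 (55.0%) had a shared region, and 25% without high-background peaks, and the 11 rested on 8 regions. The region 43.2 kb from msx2, a homeobox gene that responds to BMP (chr3:42502321-42502826), had E2F1 folds of 11.9 and 9.63 and OTX1 folds of 7.55 and 9.08. A region in the ventx cluster, homeobox repressors of dorsal fate, lay 6.26 kb from ventx3.2 (chr7:26837462-26837826). It also lay 18.9 kb from ventx1.2, 26.3 kb from ventx3.1 and 39.6 kb from ventx2.2. It had E2F1 folds of 8.15 and 6.67 and OTX1 folds of 6.19 and 9.26, over backgrounds of 1.82 and 1.55 for E2F1 and 2.88 and 3.1 for OTX1. A second region of the cluster lay 3.47 kb from ventx3.1 (chr7:26869808-26870203), with 7.2 and 5.85 for E2F1 and 2.98 and 4.38 for OTX1. Its lowest fold percentile was 0.13, and its OTX1 backgrounds were 7.73 and 7.0. The genes ventx1.1 and ventx2.1 were counted through this second region alone. It and ventx3.2 are named after their values were seen.

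Endoderm and mesoderm regulators had 43.8% (7 of 16) and 34.8% (8 of 23). Without high-background peaks these were 6.25% and 13.0%, the endoderm share being near the 5.85% of all genes. Without OTX1 replicate 1, where every peak of the other OTX1 list counted, the endoderm share was 68.8%, against 9.45% of all genes. Beside foxa4, the leading endoderm genes were hhex, pnhd and vegt. The anterior endoderm homeobox gene hhex had a region 5.31 kb away with E2F1 folds of 6.52 and 6.47 and OTX1 folds of 6.31 and 6.08. That of pnhd, a secreted factor, lay 15.3 kb away with 5.04 and 7.36 for E2F1 and 8.29 and 7.66 for OTX1. It lay closer to admp, at 1.04 kb, a gene of the organizer list named after its values were seen. The region thus counted in both lists, and its OTX1 backgrounds were 6.72 and 6.44. At vegt, the maternal T-box factor of the vegetal pole, a region 3.22 kb away had 6.73 and 8.65 for E2F1 and 4.37 and 4.56 for OTX1. In the mesoderm list the strongest region lay 3.48 kb from mespb and 28.4 kb from mespa, helix-loop-helix genes of segmentation (chr3:108954914-108955401). It had E2F1 folds of 11.8 and 10.6 and OTX1 folds of 7.97 and 8.39, with an OTX1 background of 5.02 and 4.37. Of the others, msgn1, a gene of the unsegmented mesoderm, had its region just within the limit, at 49990 bp, with 5.75 and 8.83 for E2F1 and 11 and 9.61 for OTX1. At the growth factor gene fgf20 a region 37.9 kb away had 5.23 and 5.06 for E2F1 and 7.02 and 8.29 for OTX1.

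Neural genes made up the largest number of listed genes with a shared region. Of 36 neural and anterior homeobox genes and their partners 21 (58.3%) had one, on 22 regions. Among them were otx1 and otx2, which are named after the counts were seen. The otx1 region, 2.07 kb away, had a lowest fold percentile of 2.24 over the 4 lists. Its E2F1 folds were 3.73 and 3.39, on 40 and 41 fragments. Its background was above 3 times the lowest of the list in all 4 lists. The otx2 region lay 42.8 kb away, with a lowest fold percentile of 23.1. Its folds were 5.19 and 6.09 for E2F1 and 5.4 and 4.48 for OTX1. Without high-background peaks the share was 11.1%. Of the 22 regions 17 (77.3%) had a high background in at least 1 library, and their median OTX1 background was 5.25 and 4.51. The iroquois gene irx3 had a region 9.34 kb away (chr4:41863352-41863899), with E2F1 folds of 8.4 and 8.23 and OTX1 folds of 6.75 and 8.15, and irx1 one 10.7 kb away, with 5.91 and 7.92 for E2F1 and 7.07 and 6.52 for OTX1. At crx, an otx-related gene of photoreceptors, the region lay 22.7 kb away with 6.7 and 7.94 for E2F1 and 6.77 and 6.17 for OTX1. In the ectoderm and neural border list 7 of 26 genes (26.9%) had a shared region, and 7.69% without high-background peaks. Its leading genes were tfap2c, snai2, klf2 and gata2. The region of tfap2c lay 34.3 kb away (folds of 5.73 and 6.82 for E2F1, 5.55 and 5.67 for OTX1). That of snai2 lay 7.76 kb away (6.1 and 9.4 for E2F1, 4.85 and 4.8 for OTX1). That of klf2 lay 8.39 kb away (9.62 and 8.9 for E2F1, 4.48 and 6.0 for OTX1). A region of gata2 other than the one given above lay 6.13 kb away (4.81 and 4.8 for E2F1, 4.96 and 4.57 for OTX1). Without E2F1 replicate 1, where every peak of the other E2F1 list counted, the share of this list was 42.3%, against 11.9% of all genes.

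Among maternal activators of the genome, the POU factor cluster related to mammalian Oct4 held a shared region (chr8:3284558-3284926), 1.32 kb from pou5f3.2, 1.91 kb from pou5f3.3 and 12.4 kb from pou5f3.1. It had E2F1 folds of 6.75 and 5.69 and OTX1 folds of 8.33 and 7.48. The zinc finger gene sall1 had one 27.4 kb away with 10.8 and 9.76 for E2F1 and 5.22 and 5.93 for OTX1. In all 9 of 26 genes of this list (34.6%) had a region, and 3.85% without high-background peaks. Of the hox genes 10 of 36 (27.8%, and 13.9% without those peaks) were counted from only 4 regions. One region in the hoxb cluster (chr10:12000533-12001045) lay 1.59 kb from hoxb1, 15.4 kb from hoxb2, 24.0 kb from hoxb3 and 47.0 kb from hoxb4, with E2F1 folds of 7.0 and 7.67 and OTX1 folds of 6.34 and 5.69. Without OTX1 replicate 1, where every peak of the other OTX1 list counted, the hox share was 41.7%, against 9.45% of all genes. With only regions over 5 kb from every gene end it was 2.78%, below the 4.81% of all genes. Of the forkhead genes 13 of 43 (30.2%, and 11.6% without those peaks) had one. They were led by foxl2, a gene of the ovary, with E2F1 folds of 8.06 and 7.96 and OTX1 folds of 7.82 and 9.04 at 1.39 kb. Next to foxa4 came foxn3 (5.91 and 7.0 for E2F1, 6.85 and 7.61 for OTX1) and foxo3 (7.15 and 6.12 for E2F1, 4.93 and 5.38 for OTX1).

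Of the signalling lists, Notch and FGF genes stood above all genes and Wnt genes were close to them. In the Notch and hes list 9 of 22 genes (40.9%, and 22.7% without high-background peaks) had a region. Beside hes7.1, whose region also lies 30.9 kb from hes7.2, hes1 had one 11.2 kb away with 8.3 and 7.8 for E2F1 and 4.96 and 5.1 for OTX1. A region 2.26 kb from hes5.1 had 4.76 and 4.36 for E2F1 and 4.14 and 5.21 for OTX1. The FGF and ERK list had 12 of 37 genes (32.4%), and 24.3% without high-background peaks, with a high background in 3 of its 14 regions. Its leading genes were the ligand genes fgf1 and fgf16 and the phosphatase gene dusp4, which shuts off ERK. At fgf1 a region 30.7 kb away had E2F1 folds of 6.26 and 6.13 and OTX1 folds of 7.64 and 6.95, and dusp4 had one 34.7 kb away with 7.05 and 7.11 for E2F1 and 5.2 and 5.97 for OTX1. The fgf16 region had 6.44 and 6.74 for E2F1 and 4.91 and 5.05 for OTX1. Of 58 Wnt pathway genes 7 (12.1%) had a shared region, and 8.62% without high-background peaks. Without E2F1 replicate 2, where every peak of the other E2F1 list counted, the Wnt share was 19.0%, against 10.1% of all genes. The strongest lay 8.51 kb from the receptor gene fzd4 (chr2:168406406-168407004), with E2F1 folds of 9.48 and 12.3 and OTX1 folds of 8.31 and 7.94. Another lay 26.3 kb from nkd1, an inhibitor of the pathway (5.18 and 5.55 for E2F1, 6.72 and 6.8 for OTX1). The receptor gene fzd8 had one 2.77 kb away (5.82 and 4.87 for E2F1, 5.43 and 6.29 for OTX1). That of the receptor gene fzd2 lay 33.2 kb away (6.76 and 5.55 for E2F1, 4.87 and 4.75 for OTX1).

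The gene groups best known as E2F targets stood near the level of all genes. Of 63 DNA replication genes 4 (6.35%) had a shared intergenic region within 50 kb, the same share with high-background peaks left out, and none of the 4 regions had a high background. They were those of tyms, which makes thymidylate (6.59 and 6.23 for E2F1, 8.88 and 7.65 for OTX1), the helicase subunit mcm4 (5.64 and 5.78 for E2F1, 5.83 and 8.6 for OTX1), and the helicase partner gins2 (6.85 and 5.5 for E2F1, 5.2 and 6.62 for OTX1). The last was uhrf1, which reads newly copied methylated DNA (5.51 and 6.0 for E2F1, 4.4 and 5.9 for OTX1). These 4 regions lay 43.4 kb from tyms, 19.9 kb from mcm4, 7.82 kb from gins2 and 2.78 kb from uhrf1. With 1 library of a factor left out, every peak of its other list counted, so a peak in both lists was no longer required. The share was then 14.3% without E2F1 replicate 1 and 12.7% without E2F1 replicate 2, against 11.9% and 10.1% of all genes. It was 6.35% without either OTX1 replicate, against 9.45% of all genes without replicate 1 and 9.43% without replicate 2. Of 60 cell cycle and E2F-RB genes 6 (10%) had one, and 6.67% without high-background peaks. The mitotic kinase gene aurka had a region 27.5 kb away (chr10:6061482-6062039) whose lowest fold percentile over the 4 lists was 89.8, with E2F1 folds of 9.09 and 9.29 and OTX1 folds of 10.1 and 9.1. That of wee1, the kinase that holds back Cdk1, lay 16.2 kb away (chr4:6993034-6993501), with 6.77 and 7.08 for E2F1 and 10.4 and 10.2 for OTX1. At myc a region stood 2.71 kb away with 6.76 and 6.29 for E2F1 and 6.1 and 6.86 for OTX1. The gene lin9, a subunit of the MuvB complex, had one at 49.7 kb with 7.33 and 7.22 for E2F1 and 5.22 and 6.58 for OTX1. A second region lay closer to lin9, at 2.13 kb, and is the one given above for mixer (8.23 and 8.25 for E2F1, 4.53 and 7.72 for OTX1).

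Histone and chromatin protein genes had 6 of 24 (25%, and 8.33% without high-background peaks). Their leading genes were chaf1b, of the complex that loads histones on new DNA, hmgb2, the histone gene h3-3a and hmgb1. The region of chaf1b lay 38.9 kb away (7.69 and 8.96 for E2F1, 5.38 and 6.62 for OTX1). That of hmgb2 lay 11.7 kb away (5.54 and 6.03 for E2F1, 8.01 and 10.4 for OTX1). The region of h3-3a lay 38.0 kb away (9.75 and 10.7 for E2F1, 4.68 and 5.11 for OTX1) and only 6.94 kb from lefty. That of hmgb1 lay 36.9 kb away (4.96 and 5.37 for E2F1, 10.4 and 8.98 for OTX1). Muscle and late differentiation genes had 2 of 40 (5.0%, also without high-background peaks), the globin gene hba1 (5.43 and 6.39 for E2F1, 4.77 and 6.95 for OTX1) and the myosin light chain gene myl1 (5.19 and 5.5 for E2F1, 4.94 and 4.52 for OTX1).

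Counting regions against the intergenic sequence in which they could lie gave a like order. There were 11.2 shared regions per Mb around the organizer genes, 10.4 around the nodal and vg1 genes, 8.31 around the neural genes, 8.18 around the endoderm genes and 7.16 around the ventral genes. The values were 1.85 around DNA replication genes, 1.09 around muscle and late genes and 1.82 around all protein-coding genes. The single-factor regions were also dense around the organizer genes, with 6.0 E2F1-only and 18.7 OTX1-only per Mb, against 2.6 and 8.77 around all genes. Around the neural genes these were 10.2 and 11.3 per Mb. The OTX1-only density was not raised around every patterning list, with 0.0 per Mb around the mix, bix and siamois genes, 8.05 around the ventral genes and 8.77 around the mesoderm genes. The E2F1-only densities around the same lists were 30.2, 11.6 and 5.12 per Mb, beside 30.2, 7.16 and 4.38 for the shared regions. Whether the density of shared regions differs from what the single-factor regions give was not tested.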

How the data were processed

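Called peaks of chromatin immunoprecipitation were read from 4 deposited lists, 2 for E2F1 and 2 for OTX1. The tools listed in the submitters' processing notes, without roles, are MACS2 2.2.7.1, Bowtie2 2.4.5, deepTools and fastp. Neither the use of a control library nor the treatment of reads with several places is stated in the sources used here. In the deposited lists, the authors' score per peak is the whole part of 10 times the −log10 q. The authors' fold is a ratio of summit signal to local background, and their −log10 p and −log10 q are those of the summit, as the deposited columns hold them.

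The lists hold no read totals. The summit fragments and the local background were solved from fold and p as (fragments + 1) / (background + 1) and a Poisson upper tail, which left −log10 p off by 4.56e-05 at most. These small numbers of fragments make the order of weak peaks uncertain. Positions are 1-based on xenTr10, named in the OTX1 peak names, and genes come from the RefSeq table of UCB_Xtro_10.0, which has no strand, exons or UTRs. A region's fold in a library is that of its peak there, and a region's summit is that of its peak with the higher percentile. Of 620 entries in the gene lists 579 matched the table. No genome sequence was used here, so no sequence or motif is given.

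Named regions are the 10 with the highest value of their lowest fold percentile, up to 4 listed genes per list by the same rank, the groups with most regions within 25 kb, and those next to the limits. Genes with only a locus number are not named. Among the listed genes picked by this rank, 1 is not reported here. The regions, lists and rules were chosen with earlier results of these data known. The intergenic share was tested by exact permutation over the 4 lists. The alternatives were other peak thresholds, overlaps, definitions of intergenic, distances and single libraries left out. The steps were tested on simulated data. Python 3.11.15, numpy 2.4.6, scipy 1.17.1, pandas 2.3.3 and matplotlib 3.10.9 were used.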

Additional observations from a re-analysis of the deposited data

How the results depend on the processing

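The 1149 shared intergenic regions numbered 677 when every peak had −log10 q ≥ 5 and 720 with summits of the factors within 100 bp. With 1 library left out they numbered 1343 to 1756, 1756 being the count without E2F1 replicate 1. That setting counted every peak of the factor's other list, so a peak in both lists was no longer required. The share of E2F1 intergenic regions that overlap OTX1 (36.2%) was 29.3% with a reciprocal overlap of 50% between the factors and 22.7% with summits within 100 bp, and 28.5% when each list was held to the same number of its top peaks (equal lists). The median summit distance (73 bp) was 65 bp and 43 bp under the same settings, and 73 to 84 bp with 1 library left out. The median distance to a gene end (19047 bp) was 20382 bp with equal lists, 23174 bp without peaks in a high local background, 20265 bp with a reciprocal overlap between the factors, 20622 bp with close summits, 30300 bp over 5 kb from gene ends, 14915 bp with genes of any kind, 20300 bp with the whole E2F1 region, and 18269 to 20570 bp with 1 library left out. The share with another region within 25 kb (11.6%) was 8.86% at −log10 q ≥ 5, 10.3% with equal lists, 5.71% without high-background peaks, 9.04% and 8.06% with reciprocal overlap or close summits of the factors, 10.2% with reciprocal overlap of replicates, 9.89% over 5 kb from gene ends, 10.9% with genes of any kind and also 10.9% with the whole region. It was 6.53% and 16.0% within 10 and 50 kb and 12.9% to 14.1% with 1 library left out. Genes with a shared region within 50 kb (1744) numbered 1068 at −log10 q ≥ 5, 1122 with close summits and 1046 over 5 kb from gene ends. Listed genes with one (136) numbered 66 without high-background peaks and 73 over 5 kb from gene ends. Of 306 further counts of single gene lists under an alternative, 232 stayed within 1.5 times the value given and 74 did not. Some of these moves follow from the settings themselves. A limit on summit distance lowers its median, a limit of 5 kb raises the distance to gene ends, and a library left out loosens the rule. The cause of the other moves was not tested, apart from the fewer peaks or regions that stricter settings leave. Replicates share only a number: with the replicate block the difference in intergenic share was -15.7 points with an exact sign-flip p of 0.5, the smallest that 2 pairs allow, and the replicate deviations in log2 fold of the factors had a Pearson correlation of -0.01 across the shared regions. The alternatives for motifs were not run, since no genome sequence was used here.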
